A study of Mus musculus with 8 samples.

Results

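Mural cells wrap the small vessels of the brain, and 10 genes that mark them were followed here: Pdgfrb, Rgs5, Kcnj8, Abcc9, Anpep, Cspg4, Acta2, Tagln, Myh11 and Des. They were picked by name from the 22869 gene symbols of the deposited count table, and the transcript row with the most counts on average stands for each gene. All 10 passed the low-count filter. The series compared cortex of APP/PS1 mice, a transgenic amyloid model on a C57BL/6 background, in 4 libraries from bexarotene-treated animals and 4 from animals given glycerol at 0.2 mg/kg, called vehicle. All 8 libraries carry the APP/PS1 genotype, so there is no group without amyloid transgenes. The sources used here do not give the promoters of the transgenes, the age of the mice, how much bexarotene was given and how long, or the number of animals per library. P-values therefore measure only the spread between these libraries, and how much of that spread is technical is not known.

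Pericytes sit on capillaries inside the basement membrane, and vascular smooth muscle cells form contractile rings around arterioles. Endothelial cells recruit pericytes by secreting the growth factor PDGF-B, which signals through the receptor encoded by Pdgfrb. Smooth muscle tone depends on actin and myosin, and on potassium channels that couple membrane voltage to metabolism. Loss of pericytes opens the blood-brain barrier in mice, and mural cells are studied in Alzheimer's disease because amyloid is also deposited in vessel walls. Bexarotene activates retinoid X receptors, which act as partners of several nuclear receptors.

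None of the 10 genes passed the test between bexarotene and vehicle, and their fitted changes are described here in 2 sets. Pdgfrb, Rgs5, Abcc9, Anpep and Cspg4 had fitted log2 fold changes between -0.16 and 0.10. The 4 contractile genes Acta2, Tagln, Myh11 and Des, together with Kcnj8, had fitted log2 fold changes of 0.40 to 0.62. The ranges of 2 SE overlap between these sets of genes, and whether the sets differ was not tested. Later summaries go by role and count Kcnj8 with the other 6 genes. For Acta2, Tagln, Myh11 and Kcnj8 the highest levels were in bexarotene replicates 1 and 3, and for Des in bexarotene replicates 1 and 2. By the quasi-likelihood test of edgeR, called the edgeR test from here on, 0 of the 10 had an adjusted p below 0.05, where the share called among all 16069 tested genes was 0.00622%. At an unadjusted p below 0.05 there was 1 of 10, Kcnj8, against 8.77% of all tested genes. DESeq2, limma voom and edgeR's exact test also called 0 of the 10, though DESeq2 gave Des no adjusted p. DESeq2 called 0.781%, the exact test 0.193% and limma voom 0.00622% of all genes for which they gave an adjusted p. In 0 of the 10 genes did the groups lie apart without overlap, against 5.77% of all tested genes, or 3.61% with bexarotene the higher group. The fold change was above 0 in 8 of the 10, against 50.2% of tested genes. The median was 0.25 against 0.00092 for all tested genes. The number above 0 was 4 in a fit of replicates 2 and 4 alone, and 5 to 10 when each library was left out. The 10 genes were chosen with earlier results of these data known, so these counts are a description.

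The libraries also differed in ways that the labels do not explain. On the first principal component replicates 1 and 3 of both groups lay apart from replicates 2 and 4. The vehicle libraries held either Xist or Y-linked RNA, with Xist at 248 and 307 CPM in replicates 1 and 3 and at most 0.861 CPM in the other two. All 4 bexarotene libraries held both kinds, with Xist at 84.7 to 218 CPM and the summed Y-linked genes at 9.81 to 88.5 CPM, so this mixture and the treatment cannot be told apart. The labels do not give the sex of the animals. CPM is the count scaled to the library's total over tested rows and its TMM factor. Table totals ran from 42413825 to 76542067 counts per library. Differences within replicates 1 and 3, and within replicates 2 and 4, are given beside the results. These sets were seen in the data and are not a labelled batch. Among the vehicle libraries they match the split between Xist and Y-linked RNA, so the sets and that split cannot be told apart there.

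The marker lists show which other cells were in the tissue. Endothelial markers such as Cldn5 and Pecam1 summed to 379 to 452 CPM under bexarotene and 321 to 428 CPM under vehicle. Neuron markers summed to 4391 to 6098 and 5175 to 5984 CPM, astrocyte markers to 3245 to 3847 and 3326 to 4473 CPM, and oligodendrocyte precursor markers to 293 to 381 and 316 to 391 CPM. Perivascular macrophage markers were low, at 20.7 to 28.7 and 17.8 to 33.3 CPM. Of the skeletal muscle markers, which summed to 21.0 to 38.2 and 15.5 to 63.8 CPM, the skeletal actin gene Acta1 was at 6.53 to 11.9 CPM, with a fitted log2 change of -0.19 ± 0.19 (SE). The creatine kinase gene Ckm was at or below 0.415 CPM, with 0.50 ± 0.48 (SE). Choroid plexus markers were the exception to the overlap, at 80.5 to 1468 CPM under bexarotene and 22.1 to 42.7 CPM under vehicle. Ttr made up most of that sum in each bexarotene library. In bulk tissue, fewer cells of a type and less RNA per cell cannot be told apart.

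**Figure D1:**
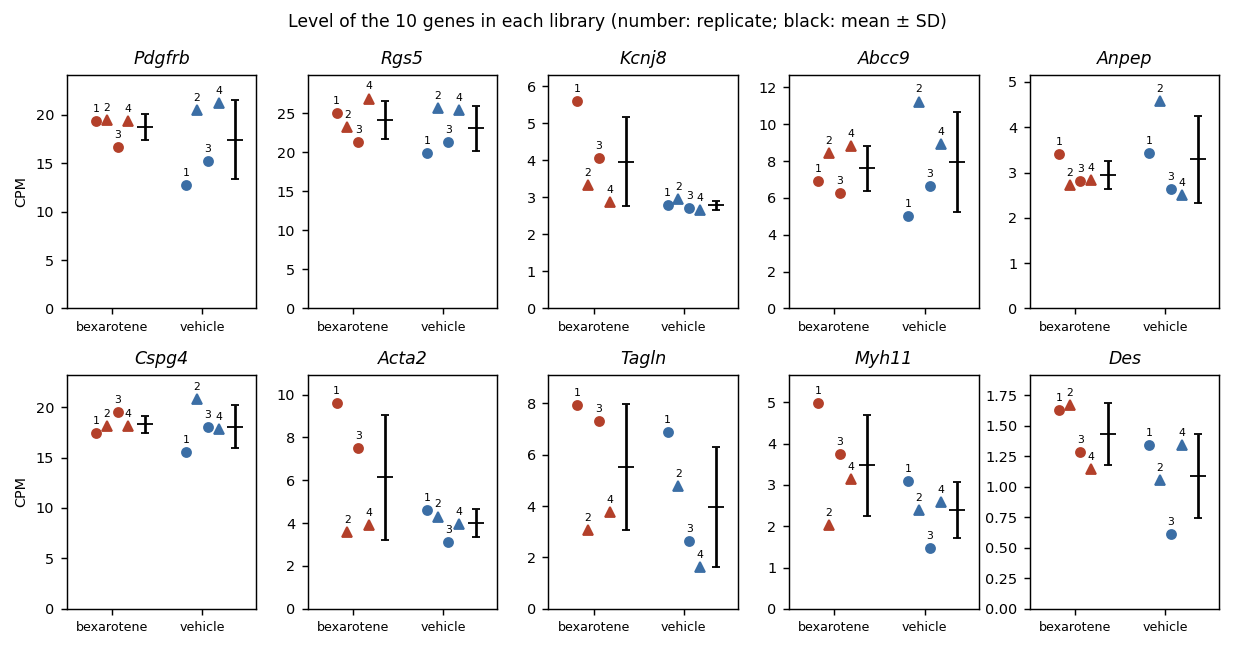
Level of each of the 10 genes in CPM (y axis) in the 4 bexarotene libraries (red) and 4 vehicle libraries (blue), with replicate numbers above the points, circles for replicates 1 and 3, triangles for replicates 2 and 4, and black bars for the mean ± SD (n = 4). Acta2, Myh11, Kcnj8 and Tagln were highest in bexarotene replicate 1, followed by replicate 3, while the groups overlap in all 10 panels.

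Pdgfrb, the receptor through which endothelial PDGF-B holds pericytes on the vessel, was among the more abundant of the genes. It was at 19.4, 19.4, 16.7 and 19.3 CPM across bexarotene replicates 1 to 4, and vehicle replicates 1 to 4 had 12.8, 20.5, 15.2 and 21.2 CPM. The bexarotene libraries lay inside the vehicle range, and the lowest values were vehicle replicates 1 and 3. The means were 18.7 ± 1.36 and 17.4 ± 4.10 CPM (SD, n = 4), and the log2 fold change was 0.10 ± 0.16 (SE, edgeR adjusted p = 0.912). A range of 2 SE around it runs from -0.22 to 0.42. Replicates 1 and 3 differed by 0.37 log2 units between the groups, and replicates 2 and 4 by -0.11. Pdgfrb has 2 transcript rows in the table, with identical counts in all libraries.

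Rgs5, a regulator that speeds the shutdown of G protein signalling and is a standard pericyte marker, was steadier. Its levels were 25.1, 23.2, 21.3 and 26.9 CPM under bexarotene and 19.9, 25.7, 21.4 and 25.4 CPM under vehicle. Each group held high and low libraries, and vehicle replicates 1 and 3 were again below replicates 2 and 4. The log2 fold change was 0.06 ± 0.11 (SE, edgeR adjusted p = 0.926), with a range of 2 SE from -0.16 to 0.29. Rgs5 rested on 848 to 2018 counts per library, the most of the 10 genes. Per length it had the highest level, at 5.77 ± 0.615 CPM per kb of transcript (SD, n = 8), and it exceeded Pdgfrb (3.34 ± 0.538 CPM per kb) in 8 of 8 libraries.

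Kcnj8 and Abcc9 encode the pore and the regulatory subunit of the ATP-sensitive potassium channel of mural cells, which opens when cellular energy falls and relaxes the vessel. The genes are neighbours in the GRCm38.p6 annotation. Kcnj8 was at 5.60, 3.33, 4.07 and 2.87 CPM in bexarotene replicates 1 to 4. In the vehicle libraries it was at 2.80, 2.95, 2.73 and 2.66 CPM. Bexarotene replicates 1, 2 and 3 exceeded every vehicle library, and bexarotene replicate 4 lay below vehicle replicate 2. The means were 3.97 ± 1.20 and 2.78 ± 0.122 CPM (SD, n = 4), so the spread was about as large as the difference under bexarotene and far smaller under vehicle.

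The fitted ratio of Kcnj8 was 1.42, a log2 fold change of 0.51 ± 0.22 (SE). The edgeR test put p at 0.044 before and 0.569 after adjustment. By exact permutation, two-sided, p was 0.0571, where 4 against 4 cannot go below 0.0286. Replicates 1 and 3 differed by 0.78 log2 units between the groups, and replicates 2 and 4 by 0.14. Without bexarotene replicate 1 the log2 fold change of Kcnj8 was 0.30, and without both bexarotene replicates 1 and 3 it was 0.16. Those replicates held the most Kcnj8, so leaving them out had to lower the difference.

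Abcc9, the regulatory subunit, did not share that pattern. It was at 6.93, 8.41, 6.25 and 8.83 CPM under bexarotene and at 5.03, 11.2, 6.63 and 8.93 CPM under vehicle. Replicates 2 and 4 were above replicates 1 and 3 in both groups. The log2 fold change was -0.07 ± 0.23 (SE, edgeR adjusted p = 0.969), and the range of 2 SE, from -0.54 to 0.40, leaves room for a change in either direction. Its sign differed in 8 of 26 alternative analyses. The log2 ratio of Kcnj8 to Abcc9 CPM within a library was -0.31, -1.34, -0.62 and -1.62 across the bexarotene replicates, and -0.85, -1.93, -1.28 and -1.75 across the vehicle replicates. Within each group the ratio was highest in replicates 1 and 3, and the groups overlapped. Whether the 2 subunits differed in their response was not tested. Of the pancreatic and neuronal relatives of these subunits, the fitted log2 change was -0.01 ± 0.28 (SE) for Kcnj11 and -0.21 ± 0.34 (SE) for Abcc8, both chosen for comparison after their values were seen.

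Anpep and Cspg4 encode surface proteins used to sort and stain pericytes. Anpep is an aminopeptidase also made by fibroblasts and myeloid cells, and Cspg4 is a proteoglycan shared with oligodendrocyte precursors. Anpep was at 3.41, 2.73, 2.80 and 2.84 CPM under bexarotene and 3.43, 4.58, 2.63 and 2.51 CPM under vehicle. Vehicle replicate 2 was the highest of all 8 libraries, and without it the log2 fold change moved from -0.16 ± 0.23 (SE) to 0.05. After adjustment the edgeR p was 0.899.

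Cspg4 was at 17.5, 18.2, 19.5 and 18.2 CPM in bexarotene replicates 1 to 4. In vehicle replicates 1 to 4 it was at 15.6, 20.8, 18 and 17.9 CPM. The means were 18.3 ± 0.846 and 18.1 ± 2.15 CPM (SD, n = 4), and vehicle replicate 2 was the highest and vehicle replicate 1 the lowest library. The log2 fold change was 0.02 ± 0.10 (SE, edgeR adjusted p = 0.982), and the range of 2 SE from -0.19 to 0.23 is the narrowest of the 10 genes. Among the markers of oligodendrocyte precursors, which share Cspg4, the fitted log2 change was 0.06 ± 0.10 (SE) for Pdgfra and 0.05 ± 0.17 (SE) for Gpr17. Of the 10 genes of that list 5 were higher and 5 lower, with a median of 0.0083.

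Acta2, smooth muscle alpha-actin, is the main thin-filament actin of arteriolar smooth muscle. Its transcription depends on serum response factor, which binds a motif called the CArG box: CC, then 6 bases of A or T, then GG. The bases just before the transcription start are shown for Acta2, the contractile gene with the largest fitted change. They are also shown for Des, the other contractile gene with an entry, and for Rgs5, the most abundant of the genes with small fitted changes. Sequences are from RefSeq promoters on GRCm38.p6, read 5′ to 3′ on the gene's strand and ending at the last base before the start. Capitals mark CArG-like matches, in which 1 of the 6 inner bases is G or C.
Acta2: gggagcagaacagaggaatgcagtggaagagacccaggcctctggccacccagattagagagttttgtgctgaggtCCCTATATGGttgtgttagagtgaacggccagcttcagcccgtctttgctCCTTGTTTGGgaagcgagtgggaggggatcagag
Des: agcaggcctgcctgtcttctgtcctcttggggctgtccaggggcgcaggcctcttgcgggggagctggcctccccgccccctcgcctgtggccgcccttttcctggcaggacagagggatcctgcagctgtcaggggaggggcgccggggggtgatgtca
Rgs5: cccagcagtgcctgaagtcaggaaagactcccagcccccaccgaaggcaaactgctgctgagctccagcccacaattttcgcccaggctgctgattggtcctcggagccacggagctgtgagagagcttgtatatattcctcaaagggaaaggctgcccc

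The windows are chr19:34255374-34255533 on the minus strand for Acta2, chr1:75360132-75360291 on the plus strand for Des and chr1:169655341-169655500 on the plus strand for Rgs5. The first Acta2 match spans bases 84 to 75 before the start, and the second bases 34 to 25. Both strands were searched at once, because the motif reads as the same pattern on either strand. In the 250 bases before the start, a CArG box stood in 1.47% of 32851 RefSeq promoters, a CArG box or CArG-like match in 8.59%, and at least 2 of either in 0.67%. Of the 10 genes 7 had an entry, all but Pdgfrb, Tagln and Myh11, and Acta2 was the 1 with a match. A match is a description of letters, not of a bound site, and no match says only that these letters are not in that window.

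Acta2 was at 9.61, 3.57, 7.49 and 3.90 CPM in bexarotene replicates 1 to 4. Vehicle replicates 1 to 4 had 4.61, 4.31, 3.14 and 3.97 CPM. Bexarotene replicates 1 and 3 were above every vehicle library, and bexarotene replicates 2 and 4 were inside the vehicle range. The means were 6.14 ± 2.91 and 4.01 ± 0.635 CPM (SD, n = 4), and the fitted log2 fold change was 0.62 ± 0.31 (SE). It was 0.32 without bexarotene replicate 1. After adjustment the edgeR p was 0.632, and the exact two-sided permutation p was 0.314. Replicates 1 and 3 differed by 1.15 log2 units between the groups, and replicates 2 and 4 by -0.15. A fit of replicates 1 and 3 alone, with 2 libraries per group, gave Acta2 an edgeR adjusted p of 0.043. These replicate sets were seen in the data, and Acta2 was highest in bexarotene replicates 1 and 3. The p of that fit is therefore not an independent test. The fit of replicates 1 and 3 alone called 4.4% of all genes, and the fit of replicates 2 and 4 alone called 0.0% and none of the 10. Whether the difference itself varied between the replicate sets was not tested. Acta2 shares most of its coding sequence with other actin genes, and reads shared with them may be split or dropped in counting.

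Tagln, an actin-binding protein of smooth muscle, had the largest standard error of the 10 genes. It was at 7.91, 3.05, 7.30 and 3.76 CPM under bexarotene and at 6.87, 4.77, 2.63 and 1.61 CPM under vehicle. Vehicle replicate 1 had nearly as much as bexarotene replicates 1 and 3, and vehicle replicate 4 had the least. The log2 fold change was 0.48 ± 0.47 (SE, edgeR adjusted p = 0.833), 0.87 without vehicle replicate 1 and 0.22 without vehicle replicate 4. It was 0.25 without bexarotene replicate 1 and 0.31 without bexarotene replicate 3. Tagln overlaps the protease gene Pcsk7 in the GRCm38.p6 annotation, and the strand setting of the counting is not given, so their reads cannot be told apart with certainty.

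Myh11, the smooth muscle myosin heavy chain, is a widely used marker of mature smooth muscle. It was at 4.98, 2.03, 3.75 and 3.14 CPM under bexarotene and at 3.10, 2.40, 1.47 and 2.60 CPM under vehicle. Bexarotene replicates 1, 3 and 4 exceeded all vehicle libraries, and bexarotene replicate 2 fell among the lower ones. The log2 fold change was 0.54 ± 0.31 (SE, edgeR adjusted p = 0.684), with 1.005 within replicates 1 and 3 and 0.02 within replicates 2 and 4. Without bexarotene replicate 1 it was 0.32.

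Des encodes desmin, the intermediate filament of muscle, which pericytes also carry. It was the least abundant of the 10 genes, with 34 to 124 counts per library. Its levels were 1.63, 1.67, 1.29 and 1.15 CPM under bexarotene and 1.34, 1.05, 0.610 and 1.34 CPM under vehicle. The groups overlapped, and vehicle replicate 3 was lowest. The log2 fold change was 0.40 ± 0.33 (SE, edgeR adjusted p = 0.787), and it was 0.20 without vehicle replicate 3. Unlike Acta2, Des was as high in bexarotene replicate 2 as in replicate 1.

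**Figure D2:**
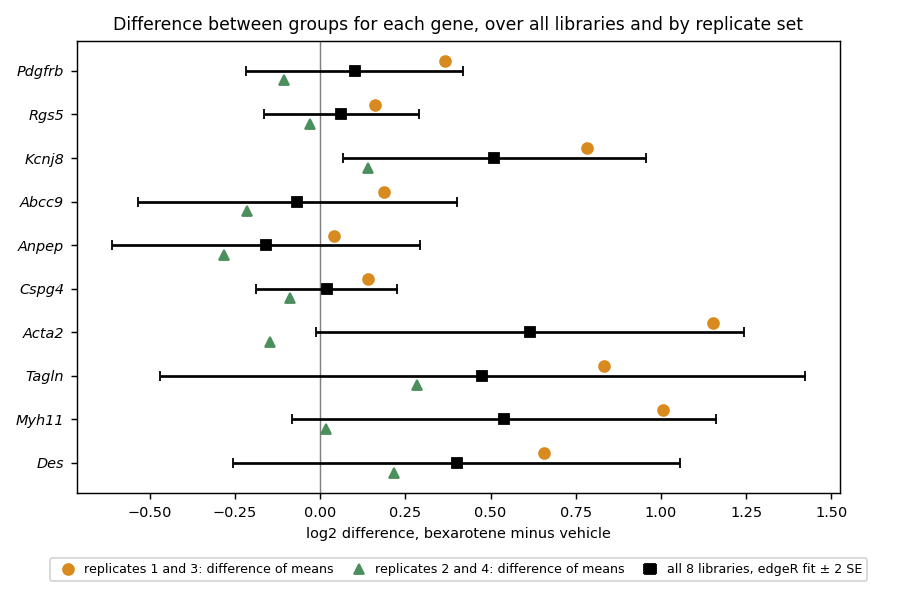
Log2 difference between bexarotene and vehicle (x axis) for each gene: black squares are the edgeR fit of all 8 libraries with bars of 2 SE, orange circles the difference of mean log2 CPM within replicates 1 and 3, and green triangles that within replicates 2 and 4. Orange lies to the right of green for all 10 genes, from 1.15 against -0.15 for Acta2 to 0.16 against -0.03 for Rgs5.

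The difference was larger within replicates 1 and 3 than within replicates 2 and 4 for all 10 genes. The share of all tested genes with this order is not given here, and the replicate sets were seen in the data. The count is therefore a description and not a result particular to these genes. The median log2 difference over the contractile genes was 0.92 in replicates 1 and 3 and 0.12 in replicates 2 and 4. Over the other 6 genes it was 0.17 and -0.10. Over all tested genes it was 0.03 and 0.0055. With both bexarotene replicates 1 and 3 left out, the median fitted log2 fold change of the contractile genes was 0.0088, against 0.51 with all libraries. These libraries had been seen to hold the most Acta2, Tagln and Myh11, so leaving them out had to lower those differences. The 4 contractile genes split in that fit, with Acta2 at -0.10, Tagln at -0.21 and Myh11 at 0.11. Des was at 0.38, close to its 0.40 with all libraries.

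Other transcripts also varied between the libraries. Of 12 endothelium markers 10 were higher. Their median log2 difference was 0.46 in replicates 1 and 3 and -0.11 in replicates 2 and 4. Their sum was 452, 379, 391 and 432 CPM in bexarotene replicates 1 to 4, and 366, 428, 321 and 414 CPM in vehicle replicates 1 to 4. By this sum, bexarotene replicate 3 lay below bexarotene replicate 4 and vehicle replicates 2 and 4. The median of the markers' log2 CPM, centred per gene, was 0.018 in bexarotene replicate 3. It was 0.103 in bexarotene replicate 4, 0.153 in vehicle replicate 2 and 0.004 in vehicle replicate 4, so the order depends on the summary. Striatum markers, such as Drd1a and Drd2, summed to 1235 and 904 CPM in bexarotene replicates 1 and 3, to 271 and 272 CPM in bexarotene replicates 2 and 4, and to 647, 212, 317 and 311 CPM in vehicle replicates 1 to 4. Blood markers, such as the globin genes Hbb-b1 and Hba-a1, summed to 24.8 and 17.5 CPM in bexarotene replicates 1 and 3 and to 3.28 to 11.8 CPM in the other 6 libraries. Fibroblast and meningeal markers, such as Col1a1 and Dcn, summed to 230, 149, 176 and 123 CPM under bexarotene and to 261, 132, 123 and 82.7 CPM under vehicle. The highest of these was vehicle replicate 1, the vehicle library with the most Tagln and Acta2. With the summed striatum markers as covariate, log2 fold changes (± SE) were 0.17 ± 0.22 for Acta2 and 0.04 ± 0.37 for Tagln. They were 0.26 ± 0.27 for Myh11 and 0.30 ± 0.21 for Kcnj8. With the fibroblast markers instead they were, in that order, 0.41 ± 0.30, 0.22 ± 0.26, 0.41 ± 0.31 and 0.40 ± 0.23. Des moved less than these genes, from 0.40 to 0.34 with the striatum markers and 0.36 with the fibroblast markers. With striatum and fibroblast markers in turn, Pdgfrb rose from 0.10 to 0.20 and 0.21, and Rgs5 from 0.06 to 0.12 and 0.12. Abcc9 went from -0.07 to 0.16 and 0.085, Cspg4 from 0.02 to 0.06 and 0.05, and Anpep from -0.16 to -0.18 and -0.23. These covariates were chosen after the data were seen, and what sets the level of these transcripts was not tested.

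**Figure D3:**
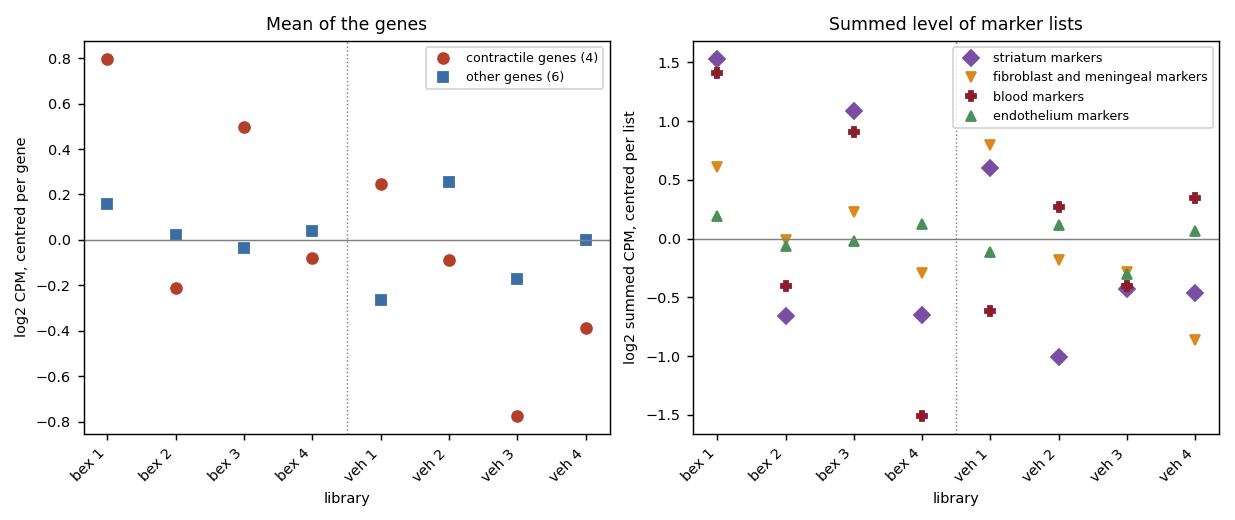
Left, mean centred log2 CPM of the 4 contractile genes (red circles) and the other 6 genes (blue squares) in each library; right, centred log2 summed CPM of 4 marker lists, with bexarotene libraries left of the dotted line and vehicle libraries right of it. The contractile genes were at 0.80 and 0.50 in bexarotene replicates 1 and 3, where striatum and blood markers were also highest, and the other genes ranged from -0.26 to 0.25.

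Relative to their mean over the 8 libraries, the contractile genes averaged 0.80, -0.21, 0.50 and -0.08 in bexarotene replicates 1 to 4 on the log2 scale. In vehicle replicates 1 to 4 they averaged 0.25, -0.09, -0.77 and -0.39. The other 6 genes averaged 0.16, 0.02, -0.04 and 0.04 under bexarotene and -0.26, 0.25, -0.17 and 0.00 under vehicle. In vehicle replicate 1 the contractile average was thus positive and that of the other genes negative, though not every gene followed the average of its set. Among 13965 further genes with a mean of at least 1 CPM, the profiles nearest to the contractile one were those of Zfp521, Slc26a10, Bgn, Serpinh1 and Hic1. Their root mean square differences from it over 8 libraries were 0.136, 0.138, 0.149, 0.151 and 0.157 log2 units, while the contractile profile itself had a root mean square of 0.468. Bgn encodes biglycan, a matrix proteoglycan, and Serpinh1 a collagen chaperone. Nearest to the other profile were B930041F14Rik, Chchd10, Paqr4, Prosapip1 and Ccdc64, at 0.042 to 0.056 log2 units from a profile whose root mean square was 0.155.

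Levels can be compared between genes per length of transcript. After Rgs5 and Pdgfrb came Tagln at 2.97 ± 1.48, Acta2 at 2.49 ± 1.11 and Cspg4 at 2.24 ± 0.187 CPM per kb (SD, n = 8). Kcnj8 followed at 1.33 ± 0.397, Abcc9 at 1.04 ± 0.260 and Anpep at 0.911 ± 0.199 CPM per kb, with Myh11 at 0.448 ± 0.166 and Des at 0.416 ± 0.111 CPM per kb. Rgs5 and Pdgfrb were the 1 neighbouring pair in this order whose ranges did not overlap. Tagln exceeded Acta2 in 7 of 8 libraries, and Acta2 exceeded Cspg4 in 3 of 8.

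Lists of related genes were read in the same fit to set the 10 in context. Over the 5 lists 0 genes passed in edgeR, its exact test and limma voom, and 1 passed in DESeq2. DESeq2 called 0.781% of all genes for which it gave an adjusted p. At an unadjusted edgeR p below 0.05 there were 1, 2, 3, 0 and 1 genes, in the order described here. The lists had 18, 16, 24, 11 and 20 tested genes in that order, and 8.77% of all tested genes were below that p. Of 18 further pericyte genes, 0 passed the test in either direction; 12 were higher and 6 lower, with a median log2 fold change of 0.09. Notch3, the receptor that keeps arterial mural cells mature, had a fitted difference of 0.30 ± 0.14 log2 units (SE), and Vtn, a secreted adhesion protein, 0.43 ± 0.24 (SE). Vtn was at 99.6, 50.3, 76.1 and 48.8 CPM under bexarotene and 63.8, 47.7, 43.5 and 49.6 CPM under vehicle, so bexarotene replicates 1 and 3 stood highest here as well. The edgeR adjusted p was 0.579 for Notch3 and 0.670 for Vtn. Without bexarotene replicate 1 the log2 fold changes were 0.19 for both genes.

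Of 18 further smooth muscle genes 16 were tested, 0 passed in either direction, and 12 were higher and 4 lower (median 0.24). Crip1, a small LIM-domain protein, was at 3.85, 3.06, 3.87 and 2.27 CPM under bexarotene and 1.34, 1.93, 1.76 and 1.49 CPM under vehicle. It was the 1 gene of the 16 whose groups did not overlap, near the 5.77% of all tested genes. The fitted log2 change of Crip1 was 0.998 ± 0.24 (SE), and its adjusted p was 0.375 in edgeR and 0.036 in DESeq2. By exact permutation p was 0.0286, the smallest this design allows. The log2 difference of Crip1 was 1.31 in replicates 1 and 3 and 0.63 in replicates 2 and 4. Myl9, the smooth muscle regulatory light chain, had a log2 fold change of 0.53 ± 0.20 (SE, edgeR adjusted p = 0.531), and 0.30 without bexarotene replicate 1. Actg2 and Ptgir were too low to test.

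Among 24 signals between endothelium and mural cells, 0 passed in either direction, with 18 higher and 6 lower (median 0.11). Eng, an endothelial co-receptor for TGF-beta ligands, had a log2 fold change of 0.52 ± 0.20 (SE) with 1.03 within replicates 1 and 3 and -0.04 within replicates 2 and 4. Tgfb1, which drives mural differentiation, had 0.43 ± 0.17 (SE) with 0.34 and 0.54. For both genes the edgeR adjusted p was 0.555. Eng was at 0.32 without bexarotene replicate 1. Pdgfb, the ligand of the receptor encoded by Pdgfrb, had a fitted difference of -0.04 ± 0.09 log2 units (SE), and it was chosen for its role after its value was seen.

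Of 13 regulators of contractile genes 11 were tested; 0 passed, and 3 were higher and 8 lower (median -0.08). Csrp2, a LIM-domain partner of serum response factor, had a fitted difference of 0.72 ± 0.37 log2 units (SE), and Tead1, a transcription factor of the Hippo pathway, -0.20 ± 0.13 (SE). Myocd, the smooth muscle coactivator of serum response factor, stayed at or below 0.248 CPM and was not tested. Srf itself had a fitted difference of -0.07 ± 0.10 log2 units (SE) and was chosen after its value was seen. Of 20 genes for ion channels and contraction signalling, 0 passed, and 7 were higher and 13 lower (median -0.12). The fitted log2 change was -0.41 ± 0.18 (SE) for Kcnma1, a calcium-activated potassium channel, and -0.18 ± 0.09 (SE) for Cacna1c, an L-type calcium channel. Their edgeR adjusted p-values were 0.578 and 0.629. Without vehicle replicate 1 Cacna1c was at -0.11, and without bexarotene replicate 1 Tead1 was at -0.13. Neurons also express these channels, and in bulk tissue the levels of the regulator and channel lists cannot be assigned to mural cells. In the fit of replicates 1 and 3 alone, 6 genes of all the related lists passed: Crip1, Eng, Mcam, Kcnma1, Mef2a and Rock2. The first 3 were higher and the last 3 lower. The lists hold 89 genes tested with all libraries, and 4.4% of all genes passed in that fit.

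**Figure D4:**
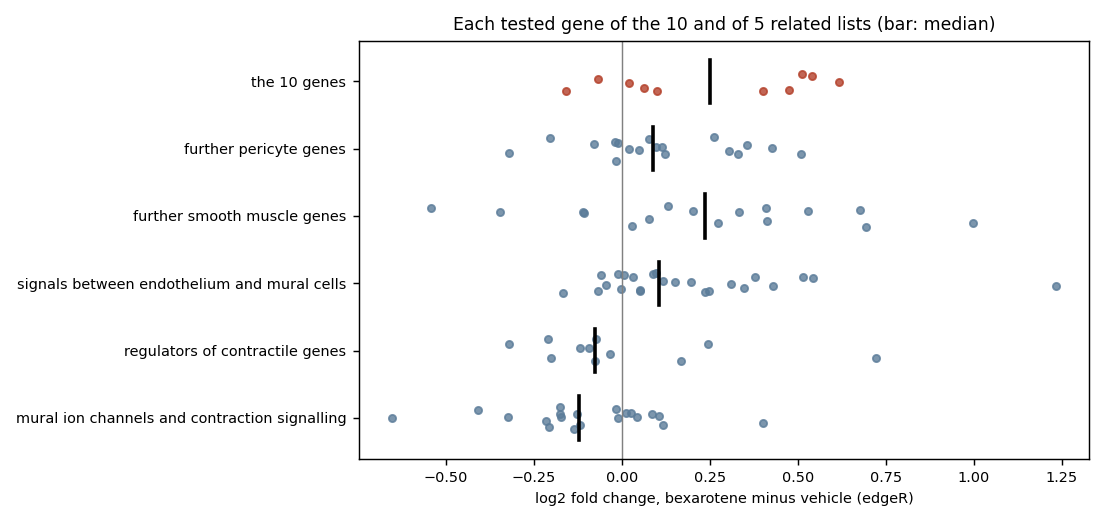
Fitted log2 fold change, bexarotene minus vehicle (x axis), of the 10 genes (red) and of each tested gene in 5 related lists (blue), with a black bar at each list's median; vertical scatter within a row is for legibility. Medians run from 0.25 for the 10 genes to -0.12 for ion channels and contraction signalling.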

How the data were processed

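The authors deposited a table of unnormalized read counts, with 28644 rows of RefSeq transcripts. Per the submitters' processing notes the build was mm9 and edgeR was used. Total RNA came from an RNeasy column kit and libraries from a stranded TruSeq mRNA kit, per the labels' protocols. The sources used here do not name the aligner, counting program or strand setting. The main test was edgeR 4.0.16 (R 4.3.3) quasi-likelihood with TMM scaling, filterByExpr at its defaults, robust estimates and group as the only term, with Benjamini-Hochberg adjustment over the 21285 rows tested. Standard errors come from the F statistic. Log2 CPM used a prior count of 2. Alternatives were DESeq2 1.42.0, limma 3.58.1 voom, other scaling, no filter, a length offset, covariates, a replicate block, and libraries left out. The striatum and fibroblast covariates and the joint omission of bexarotene replicates 1 and 3 were chosen after seeing the data. The fits of replicates 1 and 3 alone and of replicates 2 and 4 alone use sets that were seen in the data. Transcript lengths came from GENCODE M21 for 97.0% of rows. The members and lists were chosen with earlier results of these data known. Genes named are the 10 members, of each related list the 2 with the smallest p and at least 1 CPM, the first 2 of each marker list, and the 5 nearest to each profile. Kcnj11, Abcc8, Pdgfb, Srf, Myocd, Actg2, Ptgir, Mcam, Mef2a and Rock2 fall outside that rule and were chosen after their values were seen. The edgeR test was run on simulated counts in which 100 rows were changed 2-fold and 100 rows 4-fold, none of them at the lowest counts. It recovered 69% of the 2-fold and 89% of the 4-fold changes, with 11 false calls among 21032 rows. Changes below 2-fold were not simulated. Same-numbered libraries of both groups correlated in their deviations from the group means at 0.499, 0.288, 0.243 and 0.325 for replicates 1 to 4. The titles give only replicate numbers and state no pairs. Bexarotene replicate 3 correlated more with vehicle replicate 1 (0.569), and bexarotene replicate 4 more with vehicle replicate 2 (0.390). These values therefore do not establish pairs, and the replicate block is given only as an alternative.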

Additional observations from a re-analysis of the deposited data

Results flagged for a closer look

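In 40 groups of 4 libraries, for the 10 genes and the 10 further genes named from the related lists, 3 had a library whose gap to its nearest neighbour exceeded the critical share of the group's range in Dixon's test. Chance flags about 1 in 20 such groups. Pdgfrb was at 16.7 CPM in bexarotene replicate 3, while the other 3 bexarotene libraries had 19.3 to 19.4 CPM. Anpep was at 3.41 CPM in bexarotene replicate 1, against 2.73 to 2.84 CPM in the others. Myl9 was at 6.61 CPM in vehicle replicate 1, against 5.36 to 5.47 CPM in the other vehicle libraries.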

How the results depend on the processing

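With the replicate block, 0 of the 10 genes and 0 genes of the related lists passed, 8 of the 10 were higher, and the block changed no other call. The number of the 10 past the threshold was 0 in 25 of 26 alternatives and 1 in replicates 1 and 3 alone. It was 0 to 0 when each library was left out in turn. The number higher under bexarotene was 4 in replicates 2 and 4 alone, and 5 (without vehicle replicate 1) to 10 when each library was left out. Genes of the related lists past the threshold numbered 1 in DESeq2 and 6 in replicates 1 and 3 alone. Without vehicle replicate 1 the log2 fold changes of Pdgfrb and Rgs5 were -0.021 and -0.0019. When each library was left out, Pdgfrb ranged from -0.021 to 0.22, Rgs5 from -0.0019 to 0.12, Abcc9 from -0.23 to 0.15, Anpep from -0.26 to 0.050 and Cspg4 from -0.045 to 0.10. In replicates 2 and 4 alone the log2 fold change was -0.11 for Pdgfrb, -0.026 for Rgs5, -0.091 for Cspg4, -0.15 for Acta2, -0.037 for Eng and 0.016 for Kcnma1. In replicates 1 and 3 alone it was 0.17 for Abcc9 and 0.040 for Anpep. Abcc9 was at 0.049 with the length offset, 0.11 with that offset and the block, 0.16 with the striatum covariate and 0.085 with the fibroblast covariate. Cspg4 was at -0.013 with the Y-linked covariate. With both bexarotene replicates 1 and 3 left out, Abcc9 was at 0.12, Acta2 at -0.10, Tagln at -0.21 and Vtn at -0.041. The cause of these moves was not tested. Kcnj8, Myh11 and Des stayed above 0 in the alternatives run. Counts of 34 to 124 limit the precision for Des.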
